A study of Homo sapiens with 6 samples.

Results

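The 10 genes described here are VIM, which encodes the filament protein vimentin, 6 transcription factors that drive epithelial–mesenchymal transition (EMT), SNAI1, SNAI2, ZEB1, ZEB2, TWIST1 and TWIST2, and 3 regulators of the epithelial state, GRHL2, ESRP1 and ESRP2. They were chosen by name as core EMT regulators, with earlier results of these data known, and make up 10 of the 58735 genes in the count table. Of the 10, 7 passed the filter on low counts and were tested, among 14046 genes tested in all. The RNA came from PANC-1, a long-established human cell line of pancreatic ductal adenocarcinoma, unmodified and given conditioned medium (CM) from a direct co-culture of tumour cells with macrophages derived from the THP-1 monocyte line, and its polyadenylated fraction was sequenced. In the CM-MLKL group (3 libraries) the medium came from macrophages grown with PANC-1 cells that overexpress MLKL, the protein that ruptures the plasma membrane in necroptosis. In the CM-Vector group (3 libraries) it came from macrophages grown with PANC-1 cells that carry the empty vector, and the sequenced cells themselves carried neither construct. A time of 72 h is stated for the series, and the methods of the study attach it to the co-culture. Both media had been in contact with macrophages, so the comparison is between 2 co-cultures and holds no cells in plain medium, and all libraries come from a single cell line.

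EMT is the process in which epithelial cells loosen their junctions and take on migratory, mesenchymal features. The SNAI and ZEB proteins are zinc finger repressors, and the TWIST proteins are basic helix-loop-helix factors. They bind E-boxes, short DNA elements found at epithelial genes such as CDH1, the gene of E-cadherin. ESRP1 and ESRP2 keep transcripts in their epithelial splice forms, and GRHL2 sustains epithelial genes and represses ZEB1, which in turn represses epithelial regulators. Vimentin is the classical filament marker of the mesenchymal state, and PANC-1 is known as a line with a partly mesenchymal character. The question addressed by the comparison was whether medium from the MLKL co-culture shifts wild-type tumour cells along this axis.

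RefSeq promoter windows on GRCh38.p14 (250 bases before to 50 bases after a transcription start) were found for 4 of the 10 genes, VIM, ZEB1, ZEB2 and TWIST2. Those of VIM and TWIST2 are shown because these genes were among those whose libraries did not overlap between groups, and 1 window of ZEB1 because it holds the E-box letters that its own protein family is known to bind. Capitals mark the E-box (CAGGTG or CACCTG) and the GC box (GGGCGG or CCGCCC), and no match of one motif overlapped the other.
VIM, chr10:17227991-17228290, plus strand: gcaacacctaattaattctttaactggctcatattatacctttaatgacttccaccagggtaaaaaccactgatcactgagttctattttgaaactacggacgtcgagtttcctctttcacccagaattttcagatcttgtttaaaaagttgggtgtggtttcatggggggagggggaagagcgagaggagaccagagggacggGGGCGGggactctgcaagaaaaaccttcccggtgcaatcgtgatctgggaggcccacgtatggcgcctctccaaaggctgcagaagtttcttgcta
TWIST2, chr2:238847835-238848134, plus strand: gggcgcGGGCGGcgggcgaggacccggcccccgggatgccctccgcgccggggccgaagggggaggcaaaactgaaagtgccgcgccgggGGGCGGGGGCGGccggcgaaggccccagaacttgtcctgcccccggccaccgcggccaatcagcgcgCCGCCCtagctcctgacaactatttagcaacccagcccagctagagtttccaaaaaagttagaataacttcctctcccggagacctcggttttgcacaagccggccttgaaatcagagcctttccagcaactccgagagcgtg
ZEB1, chr10:31318966-31319265, plus strand: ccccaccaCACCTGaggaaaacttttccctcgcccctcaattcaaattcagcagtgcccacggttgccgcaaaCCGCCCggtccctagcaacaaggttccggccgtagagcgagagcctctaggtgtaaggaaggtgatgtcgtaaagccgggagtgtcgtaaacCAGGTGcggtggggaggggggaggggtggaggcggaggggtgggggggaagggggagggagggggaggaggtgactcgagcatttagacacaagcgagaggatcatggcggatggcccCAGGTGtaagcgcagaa
The ZEB1 window held 3 E-boxes, and 2 of the 7 ZEB1 windows held at least 1. The VIM, TWIST2 and ZEB2 windows held no E-box of these letters, against 20.6% of all 35116 windows of the same length with CAGGTG or CACCTG. Other forms of the E-box were not searched for in any window. The TWIST2 window held 4 GC boxes and the VIM window 1, whereas the ZEB2 window held none, and 45% of all windows held a GC box. These matches describe letters in 300 bases and are no measurement of binding.

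The 6 libraries held 15838403 to 17885429 counts. Levels are counts-per-million values (CPM) after scaling of the libraries by the trimmed mean of M values (TMM). A gene with 0 counts in a library may have had up to 3, which is 0.168 CPM in the deepest library and 0.189 CPM in the shallowest, by library totals before scaling. In the edgeR quasi-likelihood test, with p-values adjusted over all genes tested and a threshold of 0.05, 57 genes were higher and 15 were lower in CM-MLKL cells. CM-Vector replicate 1 stood apart, with correlations of log2 CPM of 0.923 and 0.922 with the other CM-Vector libraries, which correlated at 0.988 with each other. Genes with more than 8 kb of exons deviated by a median of 0.32 on the log2 scale in that library and genes under 1.5 kb by −0.32, against −0.17 to 0.08 and −0.05 to 0.25 in the other 5 libraries. Where leaving this library out turned a direction, changed a call or moved a log2 fold change by more than 1.5 times, the value without it is given beside the result.

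**Figure D1:**
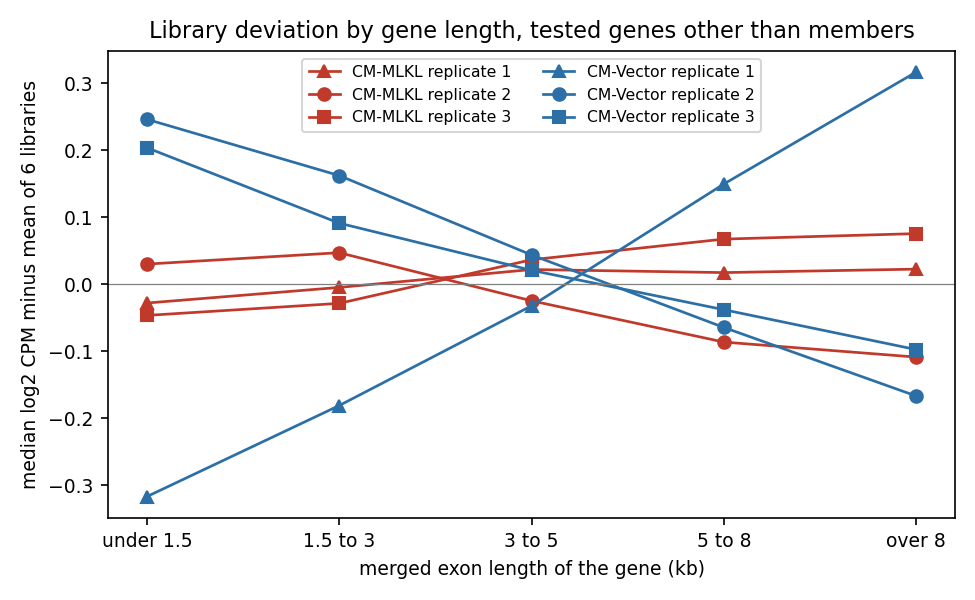
Median deviation of log2 CPM from the mean of the 6 libraries, plotted against merged exon length of the gene in kb, with 1 line for each library and members left out. CM-Vector replicate 1 climbs to 0.32 at over 8 kb while the other 5 libraries lie between −0.17 and 0.08 there.

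None of the 7 tested genes passed the threshold (0 of 7, edgeR), while 0.513% of all genes tested did. DESeq2 and limma-voom also called 0. At an unadjusted p under 0.05 the test named 2 of the 7, VIM and TWIST2, against 6.22% of all genes tested. In 3 of the 7, VIM, SNAI1 and TWIST2, every CM-MLKL library lay above every CM-Vector library, as in 6.43% of all genes tested, and in none did every CM-MLKL library lie below, as in 5.50% of all. The median log2 fold change of the 7 was 0.36, and 0.60 without CM-Vector replicate 1, against −0.04 and 0.05 over all genes tested.

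**Figure D2:**
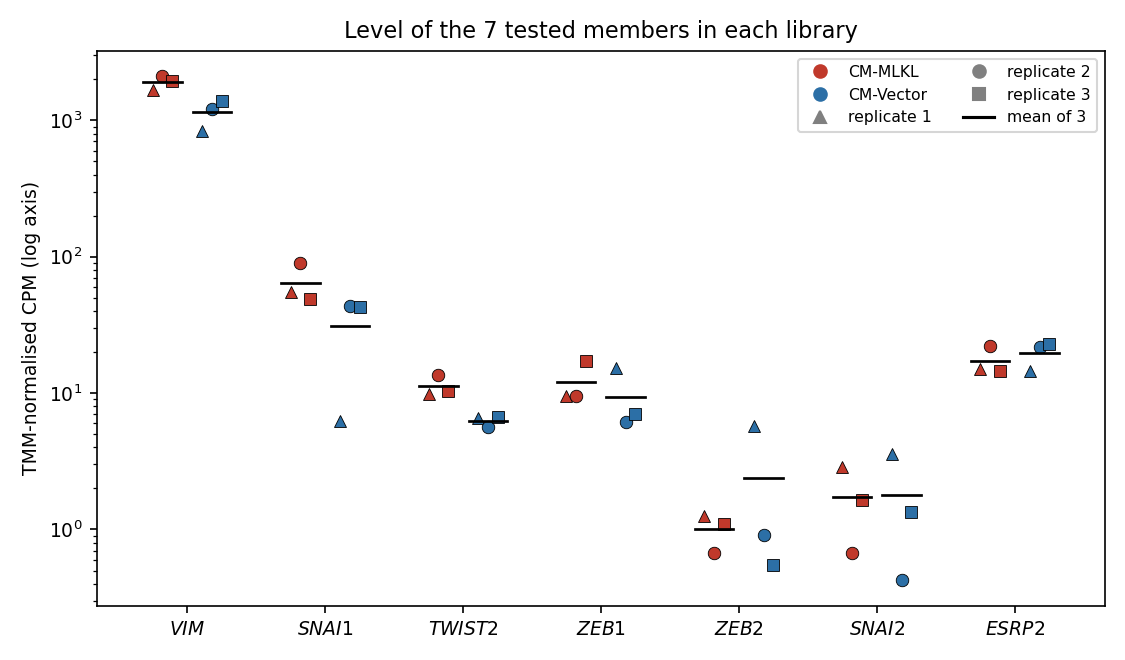
TMM-normalised CPM on a log axis for the 7 tested genes, with 1 point for each library, the shape giving the replicate number and the bar the mean of 3 libraries. The CM-MLKL points of VIM (1661 to 2114 CPM), SNAI1 and TWIST2 lie above all CM-Vector points, and the triangle of CM-Vector replicate 1 is the lowest SNAI1 point (6.27 CPM) and the highest ZEB2 point (5.73 CPM).

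VIM (ENSG00000026025, chromosome 10, 17228259 to 17237593, plus strand, GRCh38) was by far the most abundant of the 10 genes. Its level was 1661, 2114 and 1949 CPM in the CM-MLKL libraries, against 835, 1218 and 1386 CPM in the CM-Vector libraries. The lowest CM-MLKL library was thus above the highest CM-Vector library, and CM-Vector replicate 1 was the lowest of the 6. The means were 1908 ± 230 CPM and 1146 ± 282 CPM (SD, n = 3 each), a log2 fold change of 0.74 (SE 0.264, 95% interval 0.15 to 1.32). The unadjusted edgeR p was 0.0185 and the adjusted p was 0.538, so the difference did not pass the test. Without CM-Vector replicate 1 the log2 fold change was 0.58, with an adjusted p of 0.189. By count, VIM held rank 72, 59 and 45 among the 58735 genes in the CM-MLKL libraries, against rank 130, 123 and 103 in the CM-Vector libraries.

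On 24.4% of its merged exon length VIM is overlapped by genes on the opposite strand, and the library kit does not mark strand, so reads from the shared stretch cannot be assigned to either strand. VIM-AS1, the antisense transcript that starts at the same locus, had 6, 6 and 10 counts in the CM-MLKL libraries, against 48, 21 and 14 counts in the CM-Vector libraries. Its counts were below those of VIM by more than 2 orders of magnitude in all 6 libraries. All CM-MLKL libraries were below all CM-Vector libraries, as in 5.50% of all genes tested. VIM-AS1 passed the low-count filter only through the CM-Vector libraries, where it was high, so no conclusion is drawn from its difference. The log2 fold change of VIM-AS1 was −1.78 (adjusted p = 0.348, edgeR), and −1.25 without CM-Vector replicate 1. The VIM pseudogene VIM2P, listed separately, had 0 counts in all 6 libraries.

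VIM was set beside KRT8, a keratin of simple epithelia, in CPM per kb of exon within each library. This ratio was 1.08, 1.18 and 1.43 in the CM-MLKL libraries, against 0.353, 0.426 and 0.579 in the CM-Vector libraries. Per kb, VIM thus exceeded KRT8 in every CM-MLKL library and lay under it in every CM-Vector library. This is a description with no test, and which gene is higher depends on the merged exon lengths used. In plain CPM, VIM lay below KRT8 in CM-MLKL replicates 1 and 2 (1661 and 2114 CPM) and above it in replicate 3 (1949 CPM). Beside the keratin gene KRT18, VIM changed sides per kb as it did beside KRT8. Beside KRT19 it was higher per kb in all 6 libraries, with ratios of 1.21, 1.41 and 1.76 in the CM-Vector libraries. KRT8 itself measured 2058, 2387 and 1823 CPM in the CM-MLKL libraries, against 3152, 3815 and 3194 CPM in the CM-Vector libraries (log2 fold change −0.70, adjusted p = 0.482, edgeR).

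SNAI1 (ENSG00000124216, chromosome 20, 49982999 to 49988886, plus strand), the gene of the Snail repressor, had the highest group means of the 6 EMT transcription factors described. This also held per kb of exon, where SNAI1 had a mean of 38.2 CPM per kb in CM-MLKL cells and 18.4 CPM per kb in CM-Vector cells. Its level was 55.1, 89.6 and 48.6 CPM in the CM-MLKL libraries, against 6.27, 43.5 and 43.1 CPM in the CM-Vector libraries. The groups did not overlap, but the gap between the lowest CM-MLKL and the highest CM-Vector library was small, and CM-Vector replicate 1 lay far below the other 5 libraries. In CM-Vector replicate 1, SNAI1 was lower in CPM than ZEB1 (15.2 CPM) and TWIST2 (6.52 CPM). The log2 fold change was 1.06 (SE 0.570, 95% interval −0.20 to 2.32, adjusted p = 0.933, edgeR) and 0.60 without CM-Vector replicate 1 (adjusted p = 0.369). The smooth trend of CM-Vector replicate 1 on exon length and GC content was −0.36 at the values of SNAI1, while SNAI1 itself deviated by −2.58 in that library, both on the log2 scale. The pseudogene SNAI1P1 had 0 counts in all 6 libraries.

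SNAI2 (ENSG00000019549), which encodes Slug, a close relative of Snail, was expressed at a far lower level. It had 2.87, 0.674 and 1.64 CPM in the CM-MLKL libraries, against 3.58, 0.423 and 1.35 CPM in the CM-Vector libraries. The groups overlapped, with a spread inside each of them larger than the difference between them. The log2 fold change was −0.05 (95% interval −1.64 to 1.54, adjusted p = 0.999, edgeR), and it turned to 1.002 without CM-Vector replicate 1 (adjusted p = 0.521). Per kb of exon, SNAI1 made up 97.5%, 99.6% and 98.3% of the sum of SNAI1 and SNAI2 in the CM-MLKL libraries, against 77.9%, 99.5% and 98.5% in the CM-Vector libraries. SNAI1 was the main SNAI transcript in all 6 libraries, and CM-Vector replicate 1 had the lowest share.

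TWIST2 (ENSG00000233608, chromosome 2, 238848032 to 238910543, plus strand) was the TWIST gene expressed in these cells. Its level was 9.89, 13.6 and 10.4 CPM in the CM-MLKL libraries, against 6.52, 5.62 and 6.64 CPM in the CM-Vector libraries. The groups did not overlap, and CM-Vector replicate 1 lay between the other 2 CM-Vector libraries. The means were 11.3 ± 2.03 CPM and 6.26 ± 0.557 CPM (SD, n = 3 each), a log2 fold change of 0.85 (SE 0.300, 95% interval 0.18 to 1.51). The unadjusted edgeR p was 0.0172 and the adjusted p was 0.525, and without CM-Vector replicate 1 the log2 fold change was 0.91 with an adjusted p of 0.133. TWIST1, its paralog and the better known of the pair in carcinoma, had 0 counts in all 6 libraries and was not detectable at this depth.

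ZEB1 (ENSG00000148516, chromosome 10, 31318495 to 31529814, plus strand) had 9.60, 9.57 and 17.3 CPM in the CM-MLKL libraries, against 15.2, 6.10 and 7.01 CPM in the CM-Vector libraries. The groups overlapped through CM-Vector replicate 1, since the other 2 CM-Vector libraries were the lowest of the 6. The log2 fold change was 0.36 (SE 0.415, 95% interval −0.56 to 1.28, adjusted p = 0.999, edgeR), and 0.92 without CM-Vector replicate 1 (SE 0.314, adjusted p = 0.195). The merged exons of ZEB1 are 8.65 kb long, in the length range in which this library was raised. The trend of the library at the length and GC content of ZEB1 was 0.54 on the log2 scale, beside a deviation of 0.60 of the gene itself. In CM-MLKL replicate 3 the trend was 0.25, beside a deviation of 0.78. A part of length or GC content in the levels of ZEB1 was not tested. ZEB1-AS1, on the opposite strand and overlapping 4.2% of the exon length, had 14 to 28 counts over all 6 libraries.

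ZEB2 (ENSG00000169554, chromosome 2, 144364364 to 144524583, minus strand) was low, at 1.26, 0.674 and 1.10 CPM in the CM-MLKL libraries, against 5.73, 0.907 and 0.553 CPM in the CM-Vector libraries. A single library, CM-Vector replicate 1, set the difference, and the other 5 overlapped. The log2 fold change was −1.25 (95% interval −2.97 to 0.48, adjusted p = 0.999, edgeR) and turned to 0.50 without that library (adjusted p = 0.697). With 25.1 kb, ZEB2 has the longest merged exons of the 10 genes, and the trend of CM-Vector replicate 1 at its length and GC content was 0.72 on the log2 scale, beside a deviation of 2.28 of the gene. The antisense transcript ZEB2-AS1 and the pseudogene ZEB2P1 were at 0 counts in all 6 libraries.

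**Figure D3:**
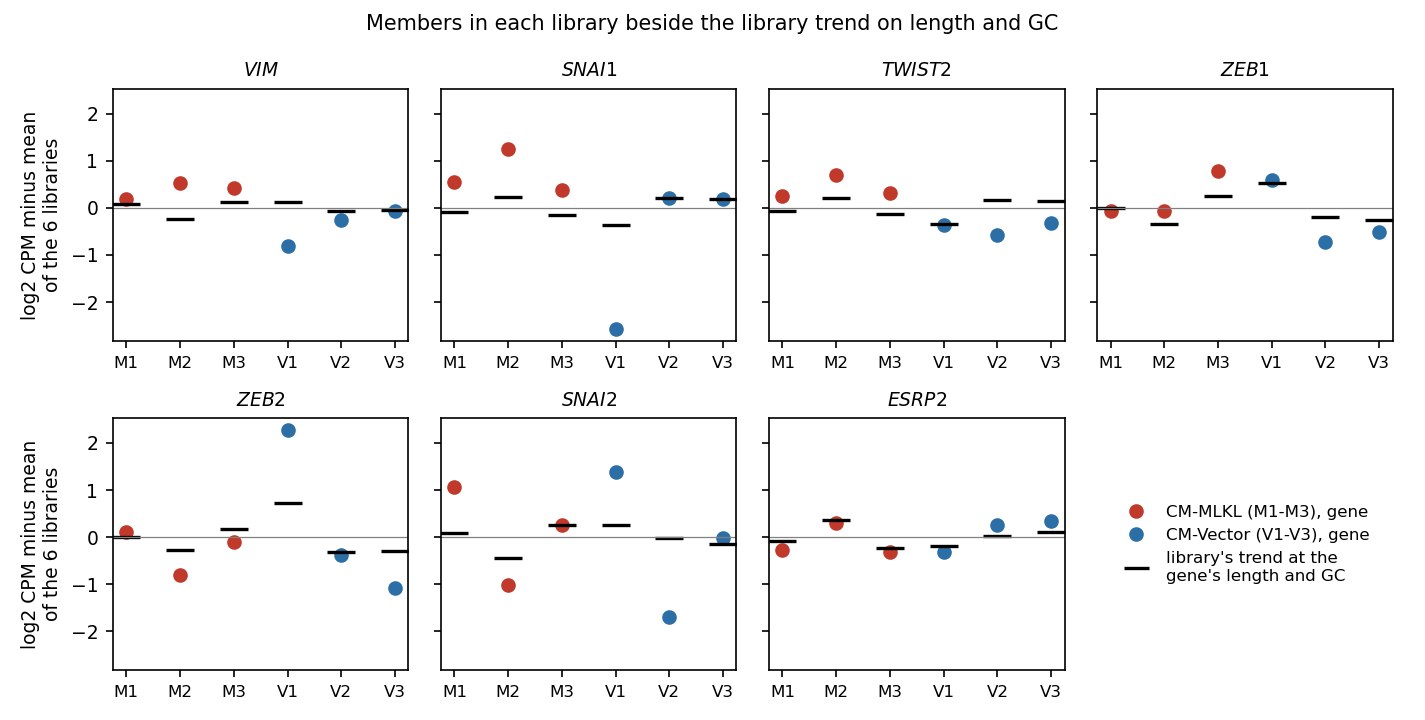
Log2 CPM minus the mean of the 6 libraries for each tested gene (points, CM-MLKL libraries M1 to M3 left of CM-Vector libraries V1 to V3), with a black dash at the smooth trend of that library for genes of the same exon length and GC content. In V1 the point of ZEB1 (0.60) lies near its dash (0.54), whereas the points of SNAI1 (−2.58) and ZEB2 (2.28) lie beyond theirs (−0.36 and 0.72).

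Among the epithelial regulators, ESRP2 (ENSG00000103067, chromosome 16, 68229111 to 68238102, minus strand) was the one that was expressed. Its level was 15.1, 22.2 and 14.5 CPM in the CM-MLKL libraries, against 14.6, 21.8 and 23.1 CPM in the CM-Vector libraries. The groups overlapped, and the log2 fold change of −0.20 (SE 0.302, 95% interval −0.87 to 0.47, adjusted p = 0.999, edgeR) was smaller than the spread between replicates. Without CM-Vector replicate 1 it was −0.35 (adjusted p = 0.583). ESRP1 (ENSG00000104413), the paralog with the same splicing role, had 1, 0 and 0 counts in the CM-MLKL libraries and 10, 1 and 2 counts in the CM-Vector libraries, and did not pass the low-count filter. Where no such filter was applied it was not called either (log2 fold change −3.12, adjusted p = 0.835 in edgeR, and −3.37, adjusted p = 0.9998 in DESeq2). GRHL2 (ENSG00000083307) had 0 counts in all 6 libraries, so a difference in it was not detectable at this depth. The hosts of 2 microRNA groups that restrain ZEB1 and ZEB2 in epithelial cells, MIR200CHG and MIR205HG, were likewise at 0 counts in all 6 libraries.

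In order of mean level per kb of exon in CM-MLKL cells, VIM stood at 370 CPM per kb, SNAI1 at 38.2, TWIST2 at 6.01, ESRP2 at 3.10, ZEB1 at 1.41, SNAI2 at 0.510 and ZEB2 at 0.0404. In CM-Vector cells the same genes stood at 222, 18.4, 3.33, 3.56, 1.09, 0.526 and 0.0957 CPM per kb. The order was the same in both groups except for TWIST2 and ESRP2, which stood in the opposite order, and no test of that was made. Merged exon lengths join all annotated transcripts of a gene, so the level per kb of a gene with many isoforms such as ZEB2 is an underestimate where short isoforms dominate.

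**Figure D4:**
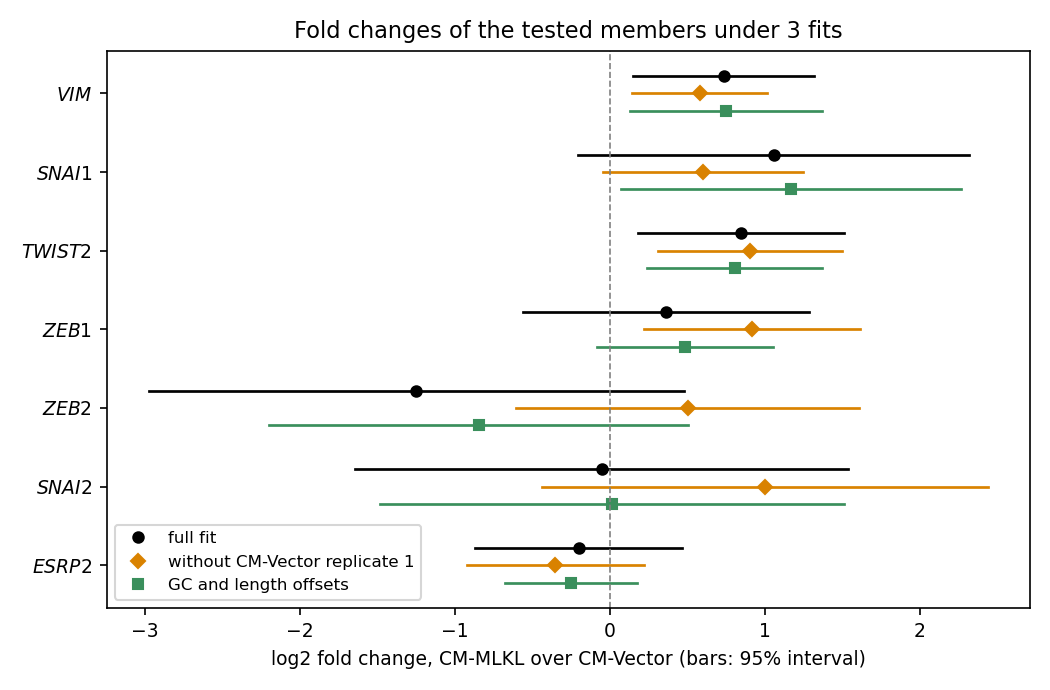
Log2 fold change of CM-MLKL over CM-Vector cells with its 95% interval for the 7 tested genes, from the fit on all 6 libraries (black), without CM-Vector replicate 1 (orange) and with library trends on GC content and exon length as offsets (green). VIM (0.58 to 0.75) and TWIST2 (0.81 to 0.91) move little between the fits, while ZEB2 is at −1.25, 0.50 and −0.85.

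Across 15 alternative analyses, VIM, SNAI1, TWIST2 and ZEB1 had a positive log2 fold change in all 15 and ESRP2 a negative one in all 15. VIM ranged from 0.52 to 0.90 and TWIST2 from 0.69 to 1.04, whereas SNAI1 ranged more widely, from 0.60 to 1.48. In the 13 of them without GC and length offsets, none of the 7 was called. With these offsets, chosen after the data were seen, none of the 7 was called, while 1.05% of all genes tested were. With the offsets and CM-Vector replicate 1 left out, SNAI1 (log2 fold change 0.74, adjusted p = 0.0197) and TWIST2 (1.04, adjusted p = 0.00791) passed the threshold, in a fit that called 9.17% of all genes tested. VIM (adjusted p = 0.113) and ZEB1 (adjusted p = 0.0970) did not pass in that fit.

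The genes around this regulatory core were described by lists, with the values over all genes tested as the measure beside them. These were a median log2 fold change of −0.04, 55.5% of genes with a negative one and 6.22% with an unadjusted edgeR p under 0.05. Of 16 other EMT transcription factors, 10 were tested, none passed the threshold in edgeR or DESeq2 or had an unadjusted edgeR p under 0.05, and the median was 0.06. SOX4, a factor upstream of EMT programmes, had the smallest p (log2 fold change 0.52, adjusted p = 0.945, edgeR, and 0.88, adjusted p = 0.0908, without CM-Vector replicate 1). It was followed by ETS1 (−0.55, adjusted p = 0.999), which turned to 0.46 without that library (adjusted p = 0.441). HMGA2, a chromatin factor linked to SNAI1 and TWIST1 expression, had a log2 fold change of 0.47 (adjusted p = 0.999), and it passed without CM-Vector replicate 1 (1.31, adjusted p = 0.0133), in a fit that called 2.20% of all genes tested.

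Of 17 other epithelial regulators, 7 were tested and all 7 had negative log2 fold changes, with a median of −0.86. Without CM-Vector replicate 1 the median was −0.34 and 6 of the 7 were negative, since GATA6, an endodermal factor, was at 0.62 (adjusted p = 0.502) and at −0.33 with that library. None passed the threshold in edgeR, and 3 had an unadjusted edgeR p under 0.05, against 6.22% of all genes tested. DESeq2 called 2 of the 7, GRHL3 and ELF3, and 196 of 26578 genes in all. GRHL3, the paralog of GRHL2 best known from skin barrier formation, had 0.402, 0.607 and 0.767 CPM in the CM-MLKL libraries, against 4.07, 1.63 and 2.89 CPM in the CM-Vector libraries. The groups did not overlap (log2 fold change −2.26, adjusted p = 0.124 in edgeR and 0.0159 in DESeq2). Of all genes tested, 5.50% had every CM-MLKL library below every CM-Vector library. With 7, 9 and 14 counts in the CM-MLKL libraries, GRHL3 passed the low-count filter only through the CM-Vector libraries, where it was high. No conclusion is therefore drawn from GRHL3. ELF3, an epithelial ETS factor, had 9.14, 12.8 and 9.15 CPM in the CM-MLKL libraries, against 15.9, 36.9 and 31.5 CPM in the CM-Vector libraries, again without overlap (log2 fold change −1.44, adjusted p = 0.167 in edgeR and 0.0189 in DESeq2). Without CM-Vector replicate 1, ELF3 passed in edgeR (−1.69, adjusted p = 0.00681) and GRHL3 did not (adjusted p = 0.0680), in a fit that called 2.20% of all genes tested. KLF4, a factor of differentiated epithelia, was at −0.86 (adjusted p = 0.677), and at −0.34 without that library.

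Of 22 epithelial genes that EMT factors are known to repress, 19 were tested, and 15 of these had negative log2 fold changes, with a median of −0.54, and −0.53 without CM-Vector replicate 1. None passed the threshold in edgeR or in DESeq2, and 6 had an unadjusted edgeR p under 0.05, against 6.22% of all genes tested. The smallest p-values belonged to the keratin genes KRT19 (log2 fold change −0.79, adjusted p = 0.340) and KRT8, and to PKP3, a desmosomal plakophilin (−0.73, adjusted p = 0.643). CDH1 was hardly expressed, with 3, 0 and 2 counts in the CM-MLKL libraries, against 4, 18 and 13 counts in the CM-Vector libraries, and was not tested in the fit on all 6 libraries. Without CM-Vector replicate 1 it passed the filter only through the CM-Vector libraries where it was high. It was then at −3.14 (adjusted p = 0.0665, edgeR). With the offsets as well it was at −3.24 and passed (adjusted p = 0.0196), in a fit that called 9.17% of all genes tested. That call rests on few counts, so no conclusion is drawn from it. With no low-count filter on all 6 libraries CDH1 was at −2.72 (adjusted p = 0.215, edgeR). Without CM-Vector replicate 1, CLDN3 and TJP3, of tight junctions, passed (−1.53 and −1.59, adjusted p = 0.0223 and 0.0399, edgeR). That fit called 2.20% of all genes tested. Other tight junction genes of the list went both ways there and did not pass. MARVELD2 was at 0.71, CGN at 0.56 and OCLN at 0.25, against CLDN7 at −0.44 and CLDN4 at −0.16.

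In the edgeR fit on all 6 libraries, mesenchymal effector genes were the one list with calls. The list was chosen with earlier results of these data known, so its calls are not independent of that choice. Of the 16 mesenchymal effector genes tested, 5 passed the threshold as higher in CM-MLKL cells and none as lower. Of all genes tested, 0.513% were called in either direction. The median of the list was 0.76, and 1.29 without CM-Vector replicate 1. Negative log2 fold changes were found for 6 of its genes, and also for 6 without that library. MMP2, a gelatinase, had 448, 714 and 425 CPM in the CM-MLKL libraries, against 77.3, 80.3 and 97.0 CPM in the CM-Vector libraries (log2 fold change 2.64, adjusted p = 0.00497, edgeR). TGFBI, a matrix protein induced by TGF-beta, rose with a log2 fold change of 2.12 (adjusted p = 0.00585), and ITGA5, the fibronectin receptor subunit, with 2.23 (adjusted p = 0.00825). LOXL2, a lysyl oxidase that also interacts with Snail, rose with 1.92 (adjusted p = 0.0347), a call that was lost without any one of the CM-MLKL libraries or without CM-Vector replicate 2 (adjusted p 0.0673 to 0.198). CDH2, the gene of N-cadherin, was at 1.22 (adjusted p = 0.222, edgeR) and passed without CM-Vector replicate 1 (1.301, adjusted p = 0.0376). So did COL5A1 (1.78, adjusted p = 0.0783, and 2.14, adjusted p = 0.0119, without it). The fit without that library called 2.20% of all genes tested. On all 6 libraries DESeq2 called CDH2 (adjusted p = 0.0498) and COL5A1 (adjusted p = 0.000233), among 196 of 26578 genes. COL5A1 also passed in edgeR with no low-count filter, with a replicate block and with the offsets. The fold changes of MMP2, TGFBI, ITGA5 and LOXL2 exceeded those of VIM and of every EMT transcription factor tested. These genes were named because they passed the threshold, while 6 genes of the list had negative log2 fold changes. The confidence interval of SNAI1 on all 6 libraries (−0.20 to 2.32) also covers the log2 fold changes of LOXL2, TGFBI and ITGA5. The comparison therefore cannot rank effector genes above regulators, and no conclusion is drawn from it.

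**Figure D5:**
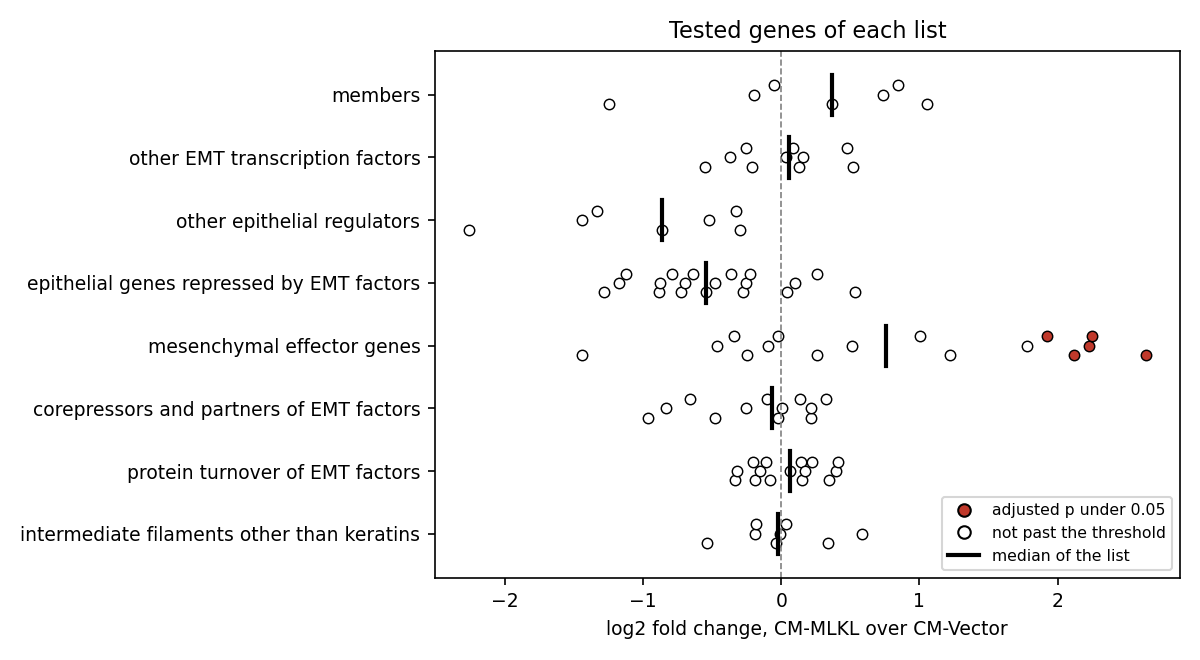
Log2 fold change of CM-MLKL over CM-Vector cells for every tested gene of 8 lists (points, filled where the adjusted p is under 0.05), with a vertical bar at the median of each list. The 5 filled points, from 1.92 to 2.64, all belong to the mesenchymal effector genes, and all 7 tested epithelial regulators outside the 10 described lie below 0 (6 of 7 without CM-Vector replicate 1).

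No partner of the EMT factors and no gene of their turnover passed the threshold. None of 12 corepressors and partners passed (edgeR and DESeq2, 12 tested, 1 with an unadjusted p under 0.05, median −0.07, and 0.09 without CM-Vector replicate 1), and the smallest p-values belonged to SUZ12, of the Polycomb complex (log2 fold change −0.83, adjusted p = 0.656), EP300 (−0.96, adjusted p = 0.945) and KAT2B (−0.66, adjusted p = 0.999), both acetyltransferases. SUZ12 was at −0.43, EP300 at 0.08 and KAT2B at 0.03 without CM-Vector replicate 1. Of 16 genes in the turnover of EMT factors, 15 were tested and none passed in edgeR or DESeq2 or had an unadjusted edgeR p under 0.05 (median 0.06, and 0.22 without CM-Vector replicate 1). The first by p were PAK1, a kinase that phosphorylates Snail (0.41), SIAH1, a ubiquitin ligase (0.40), and COPS2, of the signalosome (−0.34), each with an adjusted p of 0.999. PAK1 was at 0.18, SIAH1 at 0.53 and COPS2 at 0.11 without CM-Vector replicate 1. Of 13 intermediate filament genes and linkers other than keratins, 8 were tested and none passed in edgeR or DESeq2 or had an unadjusted edgeR p under 0.05 (median −0.02, and −0.18 without CM-Vector replicate 1), with LMNB1 at −0.53 (adjusted p = 0.923), NES, the nestin gene, at 0.58 and PLEC, the plectin gene, at 0.34 (both adjusted p = 0.999). NES was at 0.28 and PLEC at 0.82 without CM-Vector replicate 1. Of 5 transcripts known to be spliced by ESRP proteins, all 5 were tested and none passed (edgeR and DESeq2, 1 with an unadjusted p under 0.05, median −0.15). Among these, FGFR2 was at −0.99 (adjusted p = 0.796), CD44 at 0.31 and ENAH at −0.19 (both adjusted p = 0.999), and ENAH turned to 0.11 without CM-Vector replicate 1. Gene counts carry no splice forms.

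The 3 genes whose pattern over the 6 libraries was nearest to a given member were found among 10038 genes, by the root-mean-square difference of centred log2 CPM. For VIM these were HAPLN3 (0.06), MRPL52 (0.08) and NBDY (0.08). For SNAI1 they were NRTN (0.29), NOVA2 (0.31) and PPM1J (0.33), at several times the distance. For ESRP2 they were SNRPG (0.03), NOP53 (0.04) and DDX54 (0.05). With 6 libraries shared by all genes, these distances are a description.

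The label of the cells was checked against markers. The keratin genes KRT8, KRT18 and KRT19 were abundant in all 6 libraries, whereas EPCAM was low, at 1.82 to 2.08 CPM in CM-MLKL cells and 3.26 to 4.41 CPM in CM-Vector cells. None of the 5 ductal epithelial markers passed in edgeR (3 with an unadjusted p under 0.05, against 6.22% of all genes tested, median −0.70). The 12 macrophage markers summed to 4.14 to 5.53 CPM in CM-MLKL libraries and 5.92 to 8.67 CPM in CM-Vector libraries, with PTPRC, the pan-leukocyte gene, at 0 counts in all 6 and 2 of the 12 tested, CD14 (log2 fold change −0.88, adjusted p = 0.727) and ITGAM (−1.38, adjusted p = 0.704, and −0.56, adjusted p = 0.624, without CM-Vector replicate 1). The 7 fibroblast markers, of interest because fibroblasts also express VIM, summed to 10.9 to 11.8 CPM in CM-MLKL libraries and 4.66 to 10.3 CPM in CM-Vector libraries, nearly all from THY1 (0.52, adjusted p = 0.999, and 0.26 without CM-Vector replicate 1), with DCN at 0 counts in all 6. The part of such cells in the level of VIM was not tested. In bulk RNA, more cells that express a gene and more RNA per cell cannot be told apart.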

How the data were processed

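Per the study's methods, mRNA was enriched on oligo(dT) beads, libraries were made with a kit that does not mark strand, fastp served to filter reads and StringTie to assemble them after mapping. Which aligner, genome build and counting tool were used is not given in the sources used here. Raw counts per gene were deposited by the authors. Names were matched to GENCODE on GRCh38 (58708 of 58735), and 27 rows whose names a spreadsheet had turned into dates (0.155% of counts) stayed in the tests but are not named.

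Counts were analysed in R 4.3.3 with edgeR 4.0.16. Genes were kept by filterByExpr (minimum count 10, minimum total count 15), scaled by TMM and compared with the two-sided quasi-likelihood test on group alone over 6 libraries, with Benjamini-Hochberg adjustment over all 14046 genes tested and a threshold of 0.05. The methods of the study use DESeq2 at the same threshold. They describe independent experiments, but no label says so for these libraries, and p-values measure the spread between them. Alternatives were DESeq2 1.42.0, limma-voom (limma 3.58.1), other scaling and filters, each library left out, a replicate block and, added after the data were seen, GC and length offsets (mgcv 1.9.3). Counting limits for a count of 0 cover counting error only. The members and lists were chosen with earlier results of these data known. Named genes are all members, of each list those past the threshold and otherwise up to 3 with the smallest adjusted p, and the 3 nearest patterns of VIM, SNAI1 and ESRP2 among genes averaging at least 5 CPM. Genes named only for a call under another setting, the tight junction genes named beside CLDN3 and TJP3, and CDH1, EPCAM and KRT18, were chosen after their values were seen. The values of 1 mesenchymal effector gene are not reported here.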

Additional observations from a re-analysis of the deposited data

How the results depend on the processing

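The count of genes past the threshold, 72 in the edgeR fit, was 196 with DESeq2, 249 with no filter on low counts, 147 with GC and length offsets, 1312 with these offsets and without CM-Vector replicate 1, and 18 to 314 with 1 library left out, the highest without CM-Vector replicate 1 and the lowest without CM-MLKL replicate 2. Of the 7 tested genes described, 0 passed in 14 of the 15 alternatives and 2 passed with the offsets and without CM-Vector replicate 1. Over all lists the count of 5 was 9 with DESeq2, 8 with no filter, 23 with the offsets and without CM-Vector replicate 1, and 4 to 11 with 1 library left out. SNAI2 turned positive with limma-voom (0.18), with the offsets (0.016), with the offsets and without CM-Vector replicate 1 (0.85), without CM-MLKL replicate 2 (0.33) and without CM-Vector replicate 1, and ranged from −0.61 to 1.002 with 1 library left out. ZEB2 turned positive without CM-Vector replicate 1 (0.50), also with the offsets (0.17), and ranged from −1.71 to 0.50 with 1 library left out. The cause was not tested in any of these cases. Keeping only genes with 5 CPM or more in 3 libraries left no value for ZEB2 and SNAI2. The other alternatives kept the direction and the side of the threshold for VIM, ZEB1 and ESRP2, and for SNAI1 and TWIST2 in all but the fit named above.

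The labels number the libraries 1 to 3 in both groups. Deviations from the group means of same-numbered libraries correlated at 0.17, 0.17 and −0.31, so the numbers were not taken as pairs. With a replicate block, 155 genes passed in all, 8 in the lists and 0 of the members, and SNAI2 was at 0.14. SNAI2 and ZEB2 had 7 to 117 counts per library. TWIST1 and GRHL2, at 0 counts, could not be compared, and ESRP1 only without the low-count filter, where it was not called.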
